A study of Mus musculus with 12 samples.

Results

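The core clock genes are 10 genes that form the feedback loop of the circadian clock: Arntl (also called Bmal1), Clock, Per1, Per2, Per3, Cry1, Cry2, Nr1d1, Nr1d2 and Dbp. They were chosen by name, not by a measured value, though with earlier results of these data known. They were found among the 54752 genes of the table through the mouse GENCODE gene names. All 10 were matched and all 10 passed the filter on low counts, with between 525 and 9561 reads per gene and library. Poly(A) RNA was sequenced from pieces of cerebellar cortex, dissected free of the nuclei, of 12 male wild-type mice, F1 hybrids of C57BL6J and FVB, at 12 weeks of age. Each of 3 diets had 4 mice: ad libitum feeding (AL), dietary restriction (DR) and a ketogenic diet (KD). DR mice were given a reduced portion of the standard pellets once a day, just before dark, and AL mice ate the same pellets freely. AL and DR mice were taken over several hours at the start of the dark period, DR mice without the meal of that day. Of the mice on AL and DR, those sequenced were selected for RNA quality. The ketogenic diet is named in the labels only, and its composition, its start and the hour at which these mice were taken are not given in the sources used here. The hour at which each mouse was taken is not in the labels, so its part in the values given here was not tested. For DR, the amount of food, its timing and the missed meal cannot be told apart.

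In the loop, the proteins of Clock and Arntl pair and switch on genes that carry E-boxes, among them the Per and Cry genes, Nr1d1, Nr1d2 and Dbp. PER and CRY proteins return to the nucleus and repress that pair. The nuclear receptors NR1D1 and NR1D2 (REV-ERB alpha and beta) repress Arntl, Clock and Cry1 through ROR elements, where the ROR receptors activate, and DBP activates genes that carry D-boxes, such as the Per genes. In peripheral tissues and in brain areas outside the master clock, the timing of meals can set the phase of this loop, and transcripts of Arntl and of Dbp cycle nearly out of phase with each other.

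Promoter sequence was taken from the RefSeq table for GRCm38.p6, which covers 250 bases before to 50 bases after a transcript start and matched 9 of the 10 genes with 13 windows. Per2 had no entry. Motifs were searched as exact letters on both strands. The E-box CACGTG was in 7.15% of the 32851 windows of the table and in windows of Per1 and Cry1. The E-prime box CACGTT, which reads AACGTG on the other strand, was in 4.68% of all windows and in those of Cry1, Cry2 and Nr1d1. The D-box, TTATGTAA or TTACGTAA, was in 1.06% of all windows and, among the clock genes, in that of Per3 alone. The core of the ROR element, TAGGTCA or TGGGTCA, was in 6.45% of all windows and, among the clock genes, in 1 window of Arntl. The CRE, TGACGTCA, was in 1.79% of all windows and in none of the 13, and the GC box GGGCGG was in 35.7% of all windows and in windows of 8 of the 9 genes. No motif searched overlaps another in the 13 windows except a pair of GC boxes in Cry1. A match describes the letters in these windows and is not evidence of binding.

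The following stretches show where each kind of clock motif lies, with the motif in capitals, positions counted from the transcript start and each sequence written in the direction of its gene. They are the E-box of Per1 at position -166 (chr11:69098699-69098948, plus strand), the E-prime box at -79 and the E-box at -60 of Cry1 (chr10:85185055-85185304, minus strand), the E-prime box of Nr1d1 at -28 (chr11:98775378-98775627, minus strand), the D-boxes of Per3 at -205 and -158 (chr4:151044666-151044915, minus strand) and the ROR core of Arntl at 31 (chr7:113207530-113207558, plus strand). By the annotation, the Arntl stretch is exonic, the Per1 and Cry1 stretches reach into an exon of the same gene by 1 and 10 bases, and those of Nr1d1 and Per3 lie upstream of any exon.
Per1: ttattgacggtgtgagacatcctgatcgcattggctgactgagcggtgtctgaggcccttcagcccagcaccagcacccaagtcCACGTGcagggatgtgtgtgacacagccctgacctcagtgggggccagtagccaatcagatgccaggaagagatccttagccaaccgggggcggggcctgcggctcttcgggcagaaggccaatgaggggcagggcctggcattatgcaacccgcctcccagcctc
Cry1: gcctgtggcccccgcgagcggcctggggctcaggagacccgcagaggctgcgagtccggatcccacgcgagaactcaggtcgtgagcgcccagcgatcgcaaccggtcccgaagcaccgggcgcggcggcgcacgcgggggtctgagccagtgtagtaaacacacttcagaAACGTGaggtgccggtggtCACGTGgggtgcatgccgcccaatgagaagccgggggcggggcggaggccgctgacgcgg
Nr1d1: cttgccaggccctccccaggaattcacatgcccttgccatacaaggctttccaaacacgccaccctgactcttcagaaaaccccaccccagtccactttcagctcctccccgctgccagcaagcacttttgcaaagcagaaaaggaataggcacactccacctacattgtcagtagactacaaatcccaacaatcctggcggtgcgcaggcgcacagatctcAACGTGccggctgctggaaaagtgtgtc
Per3: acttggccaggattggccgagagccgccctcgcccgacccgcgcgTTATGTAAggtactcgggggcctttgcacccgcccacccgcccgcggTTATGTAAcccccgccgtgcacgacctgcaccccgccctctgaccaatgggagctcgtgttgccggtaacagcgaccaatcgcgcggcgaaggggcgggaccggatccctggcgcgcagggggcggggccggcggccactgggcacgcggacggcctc
Arntl: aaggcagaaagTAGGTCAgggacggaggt

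**Figure D1:**
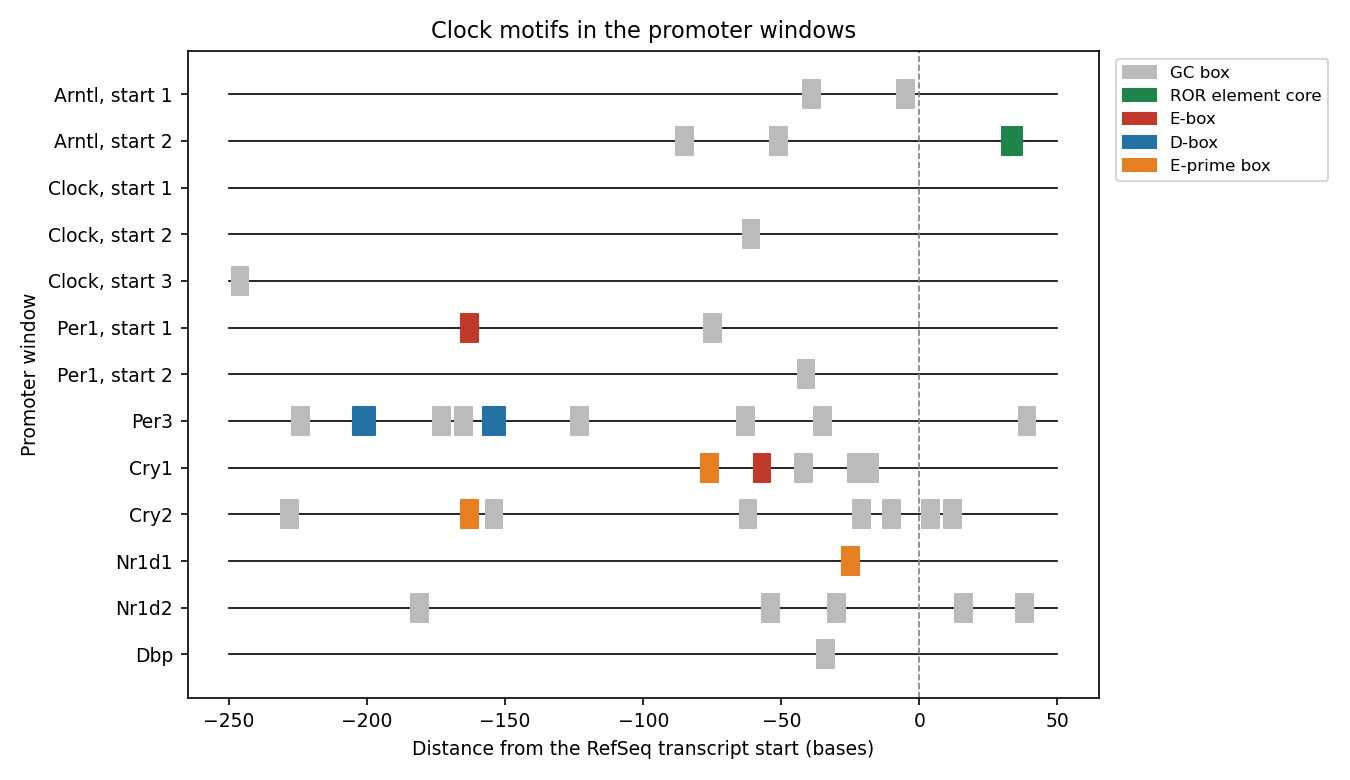
The map of motifs in the 13 RefSeq promoter windows of 9 clock genes shows the distance from the transcript start in bases on the x axis and 1 line per window, with a box for each exact match. GC boxes lie in 11 windows, whereas E-boxes lie in 2, E-prime boxes in 3, and D-boxes and the ROR core in 1 each.

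By the deposited coordinates (GRCm38.p6), the activators are Arntl at chr7:113207465-113314126 and Clock at chr5:76209868-76304792. The Per genes are Per1 at chr11:69095217-69109960, Per2 at chr1:91415982-91459324 and Per3 at chr4:151003652-151044665, and the cryptochrome genes are Cry1 at chr10:85131700-85185064 and Cry2 at chr2:92403646-92434043. Of the other genes, Nr1d1 at chr11:98767932-98775333 shares its chromosome with Per1, Dbp at chr7:45705088-45710203 shares its chromosome with Arntl, and Nr1d2 lies at chr14:18204054-18239127.

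Libraries held between 31712084 and 40798644 counted reads, with medians of 37042341 on AL, 35448835 on DR and 37671175 on KD. All 18 pairs of mice on the same diet differed by more than counting noise (chi-square per gene of 4.601 to 10.52, where noise alone gives about 1), so each library counted as 1 replicate. Whether the mice shared litters is not in the labels, and p-values measure the spread between these samples. Markers of cerebellar cortex were present. The summed level of 5 Purkinje cell genes was 5490 to 6865 CPM (reads of a gene relative to the TMM-scaled size of its library) and that of 5 granule cell genes 3631 to 4163 CPM. Forebrain neuron genes summed to 4.19 to 5.47 CPM. In bulk tissue, fewer cells of a type and less RNA per cell cannot be told apart.

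Levels of different genes were compared per transcript length, in TPM, the share of a gene in the library after division by its length. On AL, the highest levels were those of Nr1d1 with 154 ± 25.6 TPM and Nr1d2 with 150 ± 9.01 TPM (mean ± SD, n = 4, as in all such values), followed by Per1 with 130 ± 11.1 TPM. Cry2 with 97.0 ± 5.07 TPM and Per2 with 91.6 ± 8.37 TPM came next, and then Cry1 with 53.1 ± 2.90 TPM. Dbp was at 37.8 ± 8.64 TPM, Per3 at 36.1 ± 4.48 TPM, Clock at 28.4 ± 0.620 TPM and Arntl at 17.1 ± 1.36 TPM. Among neighbours in this order, the AL ranges overlapped for Nr1d1 and Nr1d2, Nr1d2 and Per1, Cry2 and Per2, and Dbp and Per3. The other neighbours were apart in all 4 AL mice. In DR and KD mice Nr1d2 stood above Nr1d1, with 129 ± 19.6 and 132 ± 12.3 TPM against 113 ± 31.8 and 120 ± 21.6 TPM, and Arntl stayed lowest. Without the correction for length, none of the 10 genes kept its place in the AL order.

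**Figure D2:**
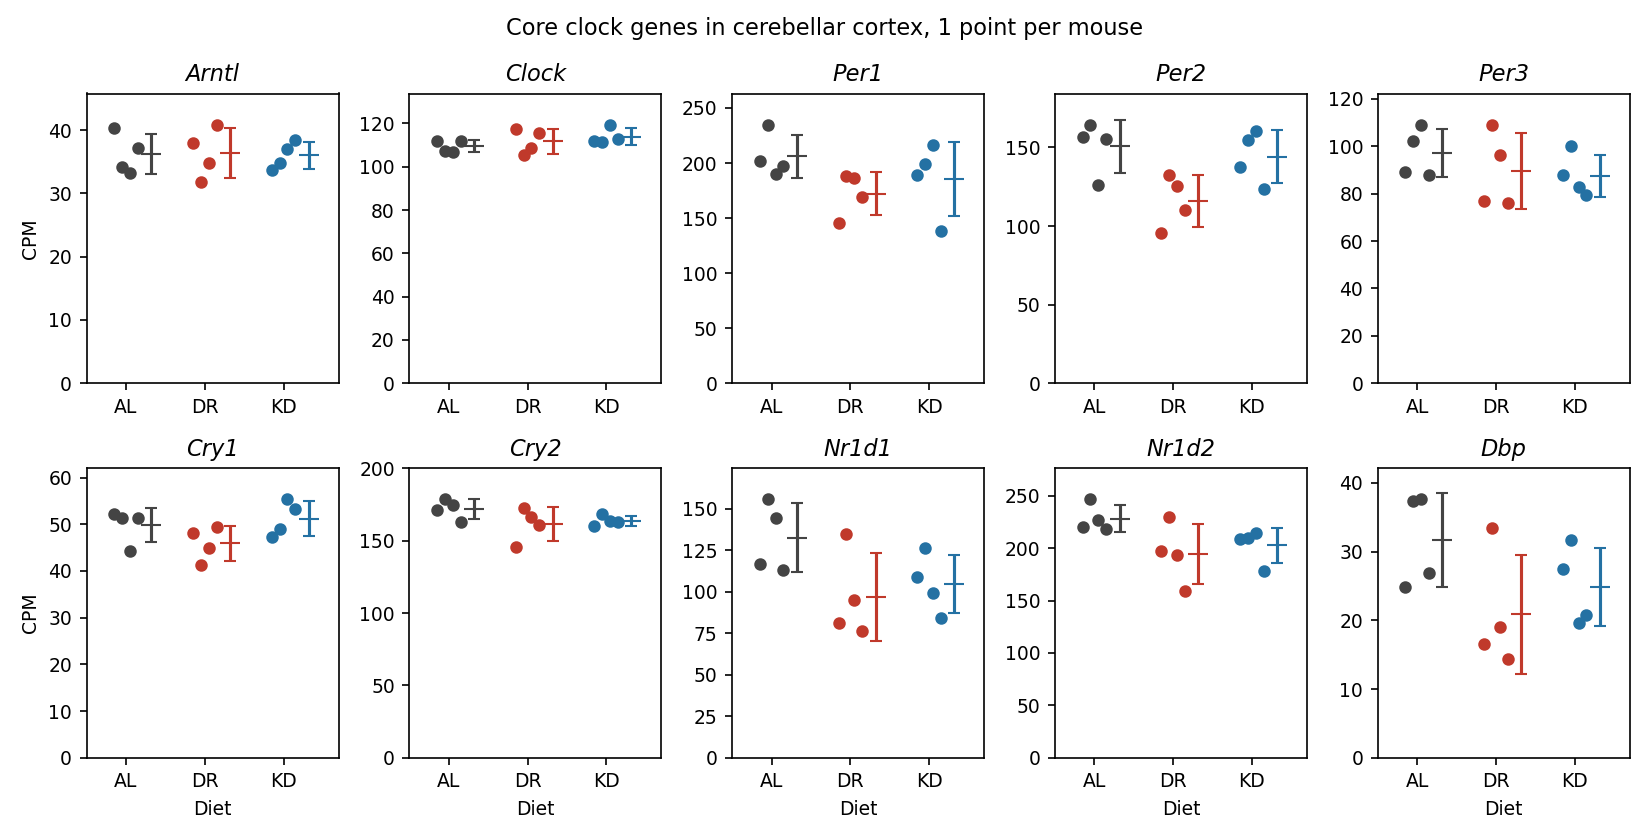
Levels of the 10 clock genes in CPM (y axis, from 0) are plotted by diet (x axis), with 1 point per mouse and the mean ± SD of 4 mice beside the points. Arntl lies between 31.7 and 40.9 CPM on all diets, whereas 3 of the 4 DR mice lie below all AL mice for Nr1d1 and for Dbp.

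Neither of the activators Arntl and Clock passed the test in any comparison. Arntl, the partner of CLOCK on E-boxes, was at 40.3, 34.2, 33.1 and 37.2 CPM in the AL mice, at 37.9, 31.7, 34.9 and 40.9 CPM in the DR mice, and at 33.7, 34.8, 37.0 and 38.4 CPM in the KD mice. The ranges of the 3 diets lay across each other. The log2 fold change was 0.01 for DR against AL, with a 95% interval of -0.16 to 0.17 (adjusted p = 0.979), and -0.01 for KD against AL, with an interval of -0.14 to 0.13 (adjusted p = 0.997). These and the later adjusted p-values, where no other method is named, come from edgeR's quasi-likelihood test on the 8 libraries of a pair of diets, with Benjamini-Hochberg adjustment over all genes tested. Clock, which encodes the other partner, ranged from 105 to 120 CPM over all 12 mice. Its log2 fold change was 0.03 for DR against AL (interval -0.07 to 0.13) and 0.06 for KD against AL (interval -0.02 to 0.14).

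The repressor Per2 was lower on DR and was the single clock gene of the 10 to pass the test between DR and AL. Over all genes, 583 of 19052 passed this test, which is 3.06%, and 331 of them, or 1.74%, were lower on DR. The other 252 were higher, and scaling by library size alone turned this split to 322 higher and 243 lower. The AL mice had 157, 165, 126.4 and 156 CPM of Per2 and the DR mice 95.9, 133, 125.6 and 110.3 CPM. Of the DR mice, 3 lay below all AL mice, and the highest DR mouse lay above the lowest AL mouse. The log2 fold change was -0.38 ± 0.0926 (SE), or a change of -23.1% (interval -32.9 to -11.8%, adjusted p = 0.0406). Of the 8 fits that left out 1 mouse each, this call was made in 2, without AL replicate 3 and without DR replicate 2. Its adjusted p ranged from 0.00721 to 0.117 in these fits, and it was lost when genes with a mean of 10 CPM or less were removed before the adjustment (adjusted p = 0.0525). The paper, in its own edgeR analysis of AL and DR mice, listed Per1 and Nr1d1 beside Per2 as lower on DR. It reported no differential expression of Arntl and Clock. Which edgeR test the paper used is not stated, and its fit was not repeated here.

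Per1, which encodes the partner repressor that is also induced acutely by several signals, was at 202, 235, 190.3 and 197 CPM in AL mice and at 146, 188, 186 and 169 CPM in DR mice. All DR mice were below all AL mice, by a narrow gap between 188 and 190.3 CPM, and Per1 was the single clock gene whose AL and DR mice did not overlap, against 5.56% of all genes tested that were lower on DR in this way. Its log2 fold change was -0.26 ± 0.0787 (SE, adjusted p = 0.0922), so the difference missed the threshold. DESeq2, which called 3.02% of all genes lower, called it (adjusted p = 0.033). Per3, the third gene of the family, had 97.1 ± 10.1 CPM in AL mice and 89.6 ± 16.05 CPM in DR mice, with a log2 fold change of -0.12 (interval -0.33 to 0.10).

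Neither of the cryptochrome genes, whose proteins repress with the PER proteins, passed the test between DR and AL. Cry1 was at 52.3, 51.4, 44.3 and 51.4 CPM in AL mice and 48.2, 41.2, 44.9 and 49.4 CPM in DR mice. The groups overlapped, and the log2 fold change was -0.12 (interval -0.26 to 0.02, adjusted p = 0.376). Cry2 had 172 ± 6.67 CPM in AL mice and 161 ± 11.7 CPM in DR mice, with a log2 fold change of -0.09 (interval -0.21 to 0.02, adjusted p = 0.403).

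Dbp and Nr1d1 had the largest log2 fold changes of the 10 genes between DR and AL, but with a wide spread, and neither they nor Nr1d2 passed the test. Nr1d1 and Nr1d2 encode the nuclear receptors of the loop. Nr1d1 was at 117, 156, 145 and 113 CPM in AL mice and at 81.2, 135, 95.03 and 76.6 CPM in DR mice. Dbp, which encodes a D-box activator, was at 24.8, 37.4, 37.6 and 26.9 CPM in AL mice and at 16.5, 33.5, 19.1 and 14.4 CPM in DR mice. For both genes, DR replicate 2 lay inside the AL range and the other DR mice lay below all AL mice. The log2 fold change was -0.45 ± 0.144 (SE, adjusted p = 0.108) for Nr1d1 and -0.61 ± 0.207 (SE, adjusted p = 0.133) for Dbp, or changes of -27.0% and -34.4%. Nr1d2, the paralogue of Nr1d1, was at 220.1, 247, 227 and 218 CPM in AL mice and 197, 229, 193 and 159 CPM in DR mice. Here too DR replicate 2 alone was inside the AL range, and the log2 fold change was -0.23 ± 0.0819 (SE, adjusted p = 0.152).

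DR replicate 2 had a large share in these values. In the fits that left out 1 mouse, 0 clock genes passed without AL replicate 1, 2 or 4 or DR replicate 1, 3 or 4. Without AL replicate 3, 1 passed. Only without DR replicate 2 did 4 clock genes pass the test as lower on DR, where 1.16% of all genes tested did. The clock genes were Per2, Nr1d1 (log2 fold change -0.66, adjusted p = 0.00499), Nr1d2 (-0.32, adjusted p = 0.0347) and Dbp (-0.93, adjusted p = 0.00411). The depth of DR replicate 2, 31749160 reads, was the lowest of the DR libraries and lay just above that of the lowest AL library (31712084). The labels of this mouse are those of the other DR mice, so its removal is given as an alternative only. Of the 10 genes, 8 had a log2 fold change below 0 for DR against AL, with a median of -0.17 against 0.00361 for all genes tested. At an unadjusted p under 0.05, Per1, Per2, Nr1d1, Nr1d2 and Dbp were lower. That is 5 of 10, where 8.98% of all genes tested were lower by that rule. Several of these genes varied together between mice of the same diet, so they are not independent observations. The 10 genes were also chosen with earlier results of these data known. Counts of core clock genes against the share of all genes, in every comparison, are therefore given as a description.

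Within a diet, Arntl differed between mice in the opposite direction to Nr1d1 and Dbp, and a fit with the log2 CPM of Arntl as a covariate had been listed as an alternative. With it, the estimates hardly moved while the errors of Nr1d1, Nr1d2 and Dbp shrank, and 4 clock genes passed as lower on DR, where 2.23% of all genes tested did. Nr1d1 had a log2 fold change of -0.47 ± 0.0701 (SE, adjusted p = 0.00263) and Dbp of -0.64 ± 0.0847 (SE, adjusted p = 0.00117). Per2 had -0.38 (adjusted p = 0.0353) and Nr1d2 -0.24 (adjusted p = 0.0371), while Per1 again missed the threshold with -0.26 (adjusted p = 0.0676). In this fit a gene that runs opposite to Arntl loses the part of its spread that the mice on a diet share with Arntl, and Arntl itself has no value.

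**Figure D3:**
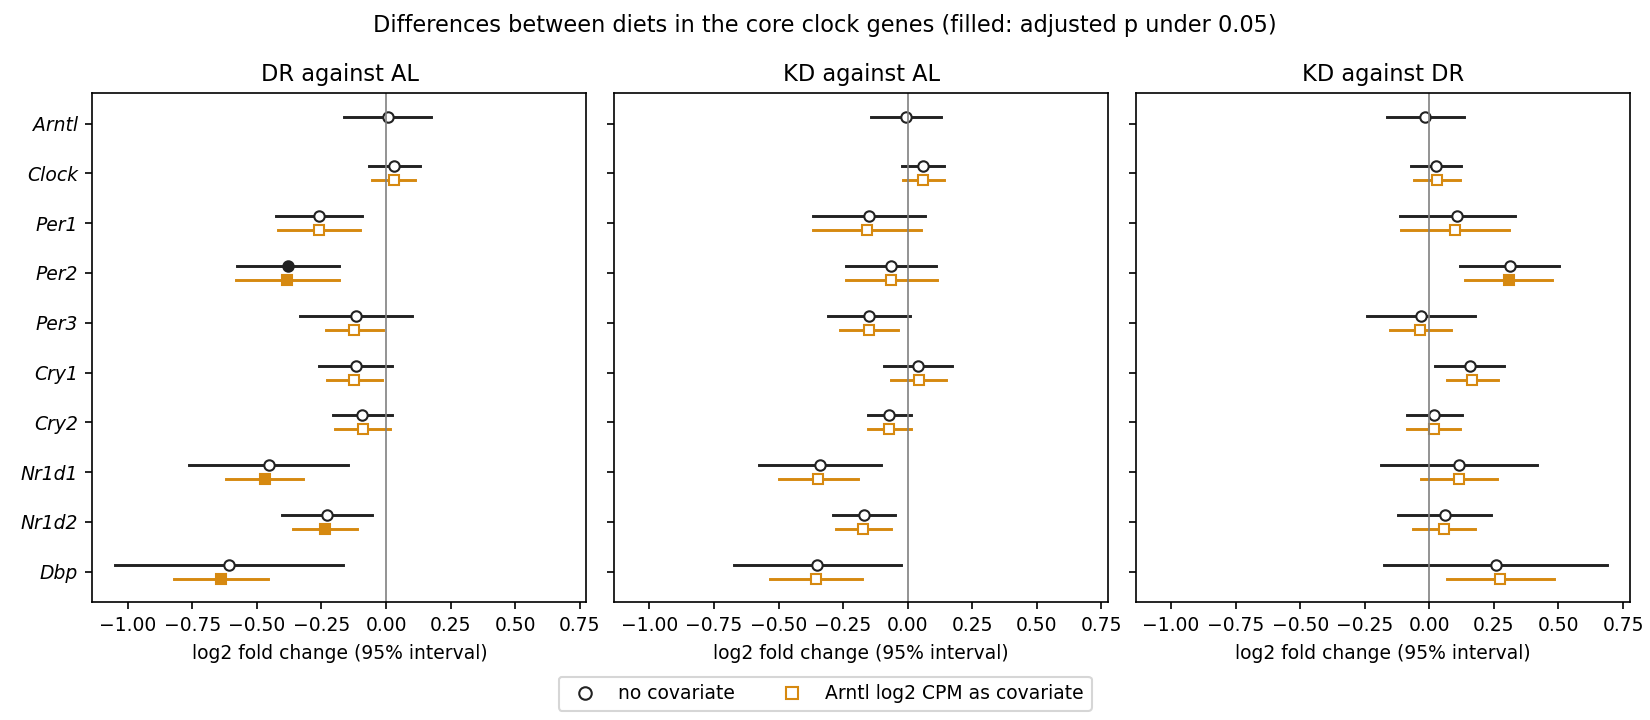
Log2 fold changes (x axis) of the 10 clock genes (y axis) are shown with 95% intervals for DR against AL, KD against AL and KD against DR, from fits without a covariate (circles) and with the log2 CPM of Arntl as a covariate (squares, no value for Arntl). Filled symbols have an adjusted p under 0.05: Per2 for DR against AL without the covariate, and with it Per2, Nr1d1, Nr1d2 and Dbp for DR against AL and Per2 for KD against DR.

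On KD, none of the 10 clock genes passed the test against AL. By edgeR's test, 0% of the 19036 genes tested did so, 4.87% had an unadjusted p under 0.05, and DESeq2 called 10 genes, none of them a core clock gene. Nr1d1 was at 109, 127, 99.6 and 84.5 CPM in the KD mice, with a log2 fold change of -0.34 against AL (interval -0.57 to -0.10, adjusted p = 0.981). Dbp was at 27.4, 31.7, 19.6 and 20.8 CPM, with -0.35 (interval -0.67 to -0.03, adjusted p = 0.994). Both genes overlapped between KD and AL. Nr1d2 was at 209, 209.8, 214 and 178 CPM in the KD mice, all below the lowest AL mouse at 218 CPM, with -0.17 (interval -0.29 to -0.05, adjusted p = 0.981). It was the single clock gene whose KD and AL mice did not overlap, where 1.47% of all genes tested were lower on KD in this way, and these 3 genes were the ones with an unadjusted p under 0.05, where 2.48% of all genes tested were lower by that rule. The Per genes had log2 fold changes of -0.15 for Per1, -0.07 for Per2 and -0.15 for Per3. The median over the 10 genes was -0.11 against 0.000213 for all genes tested. With Arntl as a covariate the adjusted p was 0.184 for Nr1d1 and 0.333 for Dbp, and again none of the clock genes passed, where 0.0368% of all genes tested did.

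Between KD and DR, where 4.94% of 19087 genes passed the test, none of the clock genes did. Of the genes that passed, 463 were higher and 479 lower on KD, or 376 and 617 when scaled by library size alone. Per2 was at 138, 154, 161 and 123 CPM in KD mice, and 3 of these 4 mice lay above all DR mice. Its log2 fold change was 0.31 (interval 0.12 to 0.50, adjusted p = 0.0584). It passed with Arntl as a covariate (adjusted p = 0.0346), where 2.68% of all genes tested were higher on KD, and without DR replicate 2 (adjusted p = 0.0236, where 2.05% of all genes were higher) or KD replicate 4 (adjusted p = 0.0283, where 1.57% were). Cry1, at 47.2, 49.0, 55.4 and 53.2 CPM in KD mice, had a log2 fold change of 0.16 (interval 0.02 to 0.29, adjusted p = 0.187). Per2 and Cry1 were the clock genes with an unadjusted p under 0.05, where 9.29% of all genes tested were higher by that rule. For Nr1d1 the log2 fold change was 0.11 (interval -0.19 to 0.42) and for Dbp 0.26 (interval -0.17 to 0.69). Without DR replicate 2 that of Dbp was 0.58 (adjusted p = 0.0282). No clock gene separated KD mice from DR mice without overlap, where 11.8% of all genes tested did. The comparisons share their mice, so the values on DR and KD against AL are not independent of each other.

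Several clock genes varied widely between mice of the same diet beside the pool of genes with a mean over 10 CPM. This pool was not matched to the level of each clock gene. The SD of log2 CPM within diets was 0.404 for Dbp, above 99.7% of the 10075 genes with a mean over 10 CPM, and 0.286 for Nr1d1, above 99.2% of them. Per1 (0.205), Per3 (0.190) and Per2 (0.184) were above 97.1 to 98.0% of these genes, and Nr1d2 (0.152) was above 93.5%. Arntl with 0.126 and Cry1 with 0.112 were above 86.8% and 79.9%. Cry2 (0.0719) and Clock (0.0551) lay below the median of 0.0787. Among all 19557 genes (median 0.131), Dbp was above 87.3%, Nr1d1 above 76.1% and the Per genes above 62.0 to 65.3%, and Arntl above 48.7%. Of the 10 genes, Dbp and Nr1d1 had both the largest log2 fold changes against AL, on DR and on KD, and the largest spread within diets.

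This spread was shared between genes. After the mean of each diet was subtracted, the log2 CPM of each pair of clock genes was correlated over the 12 mice, with an exact two-sided permutation test over all 13824 pairings within diets (smallest possible p 7.23e-05) and Benjamini-Hochberg adjustment over the 45 pairs. The p-values were added after the correlations had been seen. Of the 45 pairs, 20 had an adjusted p under 0.05. The 12 libraries are shared by all pairs, and both values of a point share the depth, tissue makeup and dissection hour of that mouse. The paper plotted core clock genes of its AL and DR mice against dissection time. It reported upward changes for Arntl, Clock and Cry1 and downward ones for Nr1d1, Dbp and Per2. The part of depth, tissue makeup or that hour in the correlations was not tested.

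The groups of genes in what follows were read from these correlations. Arntl, Clock and Cry1 varied together between mice, with r of 0.80 to 0.85 and adjusted p of 0.00977 to 0.0332 (exact permutation). Per3, Nr1d1 and Dbp also went together, with r of 0.93 to 0.96 (adjusted p = 0.00781 each, exact permutation). Between these groups of genes all 9 correlations were negative, from -0.92 to -0.73, and had an adjusted p of 0.0446 or less. For Arntl and Dbp, r was -0.92 and Spearman's rho -0.90 (adjusted p = 0.00781 and 0.0122, exact permutation). Without the pair of mice farthest from the median of Arntl, DR replicates 2 and 4, r was -0.87. Over the 9 pairs, r without the farthest mice was -0.92 to -0.61.

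In the plots of deviations, each diet has mice on both ends of this axis. DR replicate 2 had the lowest Arntl (31.7 CPM) and the highest Dbp of the DR mice, and DR replicate 4 the highest Arntl (40.9 CPM) and the lowest Dbp. On AL, replicates 2 and 3 had low Arntl and high Dbp, and replicates 1 and 4 the opposite. On KD, replicates 1 and 2 had low Arntl and high Dbp. The log2 ratio of Nr1d1 to Arntl ranged from 1.54 to 2.19 on AL, from 0.91 to 2.09 on DR and from 1.14 to 1.86 on KD.

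**Figure D4:**
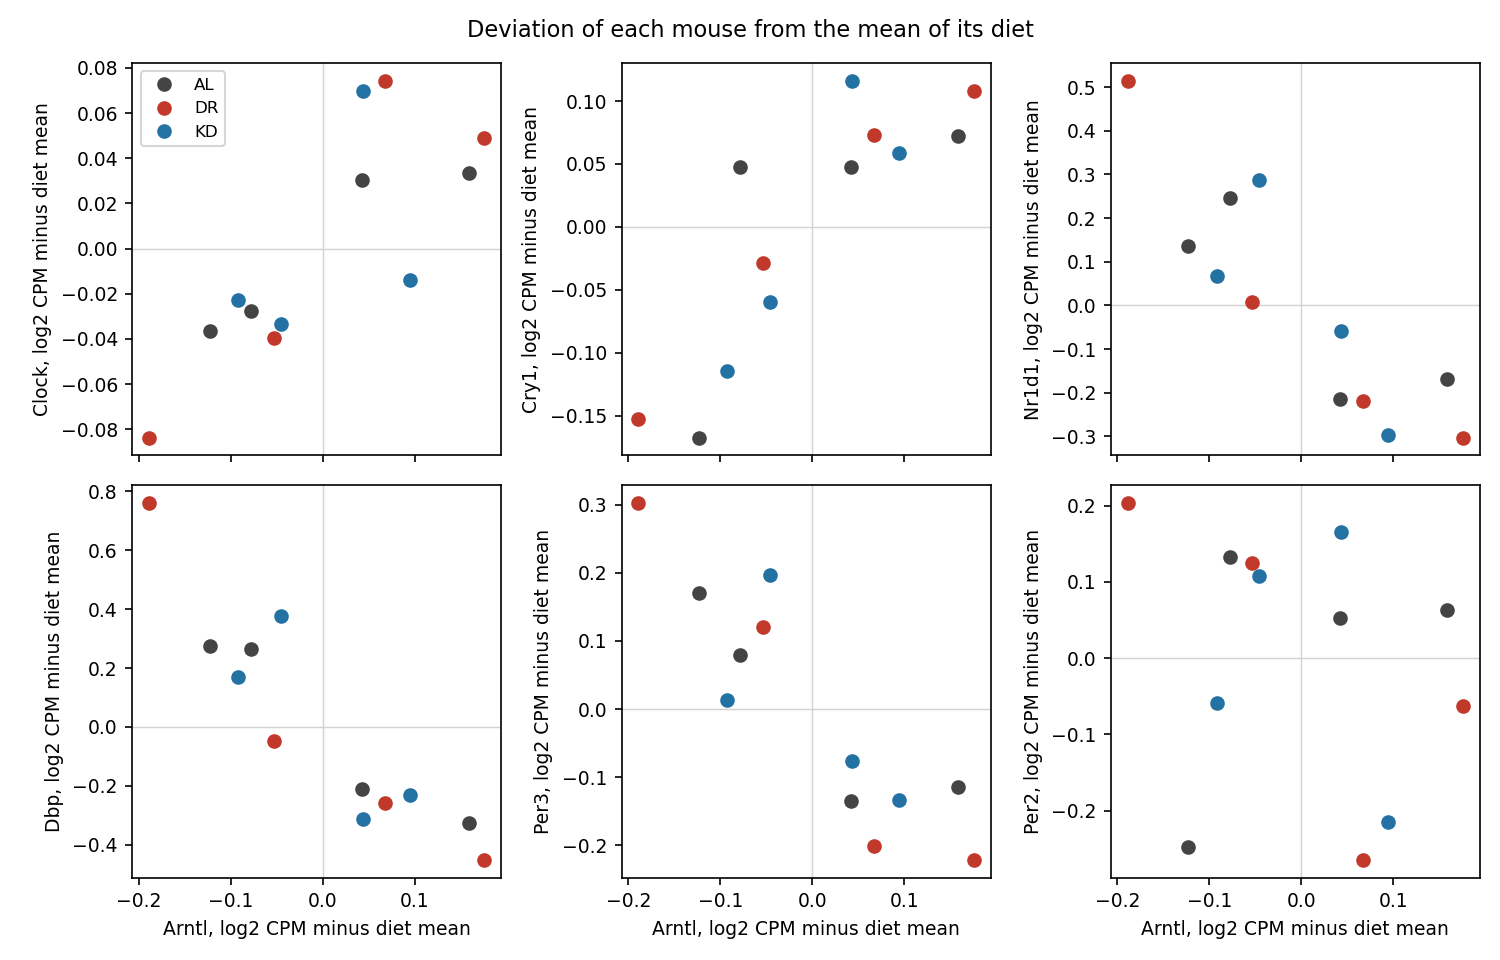
Deviations of log2 CPM from the mean of the diet are plotted for 6 clock genes (y axes) against that of Arntl (x axes), with 1 point per mouse coloured by diet. Clock and Cry1 rise with Arntl (r of 0.80 and 0.85), Nr1d1, Dbp and Per3 fall with it (-0.88, -0.92 and -0.90), and Per2 has an r of -0.26.

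Per1 and Per2 each correlated most with the other. They had an r of 0.86 and a rho of 0.90 (adjusted p = 0.00326 and 0.00814, exact permutation), and r was 0.79 without the farthest mice. Their 6 correlations with Arntl, Clock and Cry1 were -0.42 to 0.01, and their 8 with Per3, Nr1d1, Nr1d2 and Dbp were 0.31 to 0.61, of which none had an adjusted p under 0.05. By Spearman's rho, 1 of these 8 did. Nr1d2 correlated with Per3, Nr1d1 and Dbp with r of 0.71 to 0.83, of which 1 of 3 had an adjusted p under 0.05. Cry2 had 2 such correlations of 9, and its lowest was with Clock (r = -0.75, adjusted p = 0.0446, exact permutation). The number of pairs with an absolute r of 0.7 or more was 23 of 45 over all mice, 25 in AL and DR mice, 16 in AL and KD mice and 25 in DR and KD mice.

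**Figure D5:**
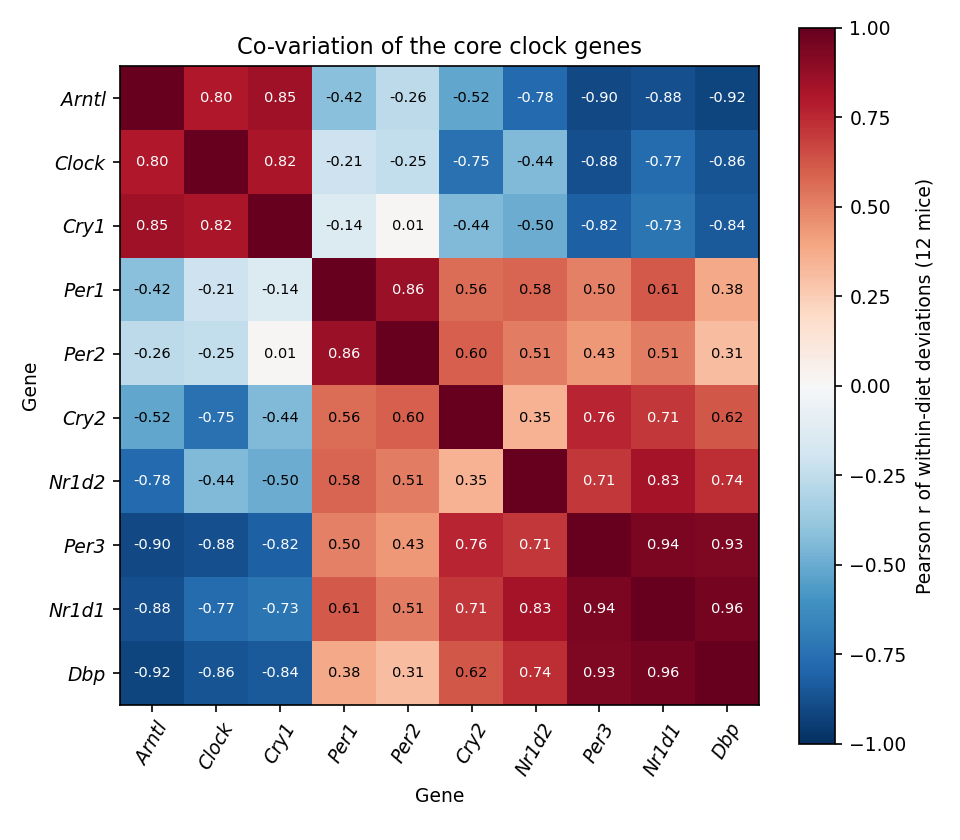
Pearson's r between the within-diet deviations of 12 mice is given for each pair of the 10 clock genes, which are on both axes, from blue (-1) to red (1). Arntl, Clock and Cry1 form a block of 0.80 to 0.85, Per3, Nr1d1 and Dbp a block of 0.93 to 0.96, and the pairs between them are -0.92 to -0.73.

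The genes outside the core loop that were most like each clock gene, by Pearson's r of within-diet deviations over 12 libraries among 11689 genes, included other clock genes. Ciart, a repressor of CLOCK and ARNTL, was the gene most like Nr1d1 (r = 0.973), followed by Tgfbr3 (0.956) and Tef (0.950), the latter a D-box factor of the family of Dbp. Tgfbr3, a TGF-beta coreceptor, was also the most like Dbp (0.952), before Gpr153 (0.936) and Atp2b4 (0.934), and was with Ybx2 the most like Per3 (0.958 each, then Grk3 with 0.947). For Arntl these genes were Iltifb (0.949), Plekhb1 (0.949) and Pde5a (0.936), for Clock Kcnma1 (0.945), Rian (0.934) and Rbm15b (0.929), and for Cry1 Ppt2 (0.946), Fam220a (0.943) and Phyhipl (0.932). Per2 was most like Klf4 (0.954), Hyou1 (0.933) and Hspa12b (0.919), and Per1 most like Tinagl1 (0.923), Rfx3 (0.899) and Tyk2 (0.894). For Nr1d2 they were Dusp11 (0.936), Zcchc7 (0.934) and Rbm3 (0.934), and for Cry2 Cdk10 (0.969), Irs1 (0.940) and Zfp536 (0.935). Each is the highest of many correlations and is given as a description.

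Of 51 symbols listed for further genes of the clock, genes under its control and genes of signals into it, 50 were matched and tested. All are counted here as other clock genes, though 8 of them, with Nr3c1 among these, were listed as inputs. The list was drawn up with earlier results of these data known. Its counts against the share of all genes, here and below, are therefore given as a description. Between DR and AL, 1 was higher and 2 were lower, which is 3 of 50 where 3.06% of all genes tested passed. Scaled by library size alone, 2 were higher and 1 was lower. Nr3c1, the glucocorticoid receptor, was lower on DR, with 93.0 ± 4.95 against 78.0 ± 2.95 CPM (log2 fold change -0.27, adjusted p = 0.00821), and all DR mice were below all AL mice. Usp54, of the family of deubiquitinases, was higher (0.22, adjusted p = 0.041), and Fmo2, a flavin monooxygenase, was lower (-0.84, adjusted p = 0.0487). The median over the 50 genes was -0.04.

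Nr3c1 passed the test in all 8 fits that left out 1 mouse, whereas Usp54 and Fmo2 passed in 2 each. Rora, the abundant ROR receptor of the cerebellum, had 350 ± 10.1 CPM in AL mice and 323 ± 16.6 CPM in DR mice (-0.14, adjusted p = 0.139). Npas2, the paralogue of Clock, had 0.37 (adjusted p = 0.283), and the E-box repressors Ciart and Bhlhe41 had -0.42 (adjusted p = 0.398) and -0.13 (adjusted p = 0.594). Hlf and Tef, the relatives of Dbp, had -0.25 (adjusted p = 0.103) and -0.09 (adjusted p = 0.689). None of these 6 genes passed the test in any of the 3 comparisons with all mice. Without DR replicate 2, 3 of them passed as lower on DR, which were Ciart (-0.79, adjusted p = 0.0408), Bhlhe41 (-0.29, adjusted p = 0.0481) and Hlf (-0.33, adjusted p = 0.0213). For each of these genes this was 1 of the 8 fits that left out 1 mouse. Hlf also passed with DESeq2 and with Arntl as a covariate. Without this mouse between KD and DR, Bhlhe41 passed (0.25, adjusted p = 0.0402).

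Between KD and AL, none of the 50 genes passed. The largest differences among the named ones were those of Fmo2 (-0.78, adjusted p = 0.694) and Hif3a (-0.58, adjusted p = 0.981), the latter of the hypoxia-inducible factor family. Ciart had -0.43 (adjusted p = 0.994) and Tef -0.21 (adjusted p = 0.981). Between KD and DR, 2 were higher on KD and 4 were lower, which is 6 of 50 where 4.94% of all genes tested passed. Nr3c1 was higher (0.32, adjusted p = 0.00075), with 96.3 ± 4.15 CPM on KD. Against AL, its log2 fold change on KD was 0.05, which did not pass the test. Fbxl21, an F-box gene whose protein acts on cryptochromes, was higher (0.40, adjusted p = 0.0406), a call made in 1 of the 8 fits that left out 1 mouse (adjusted p up to 0.123), and Fbxw11, an F-box gene whose protein acts on PER proteins, was lower (-0.32, adjusted p = 0.000547). Hif3a (-0.86, adjusted p = 0.0012), Usp54 (-0.29, adjusted p = 0.00217) and Tsc22d3, a gene induced by glucocorticoids (-0.42, adjusted p = 0.0153), were lower on KD than on DR. The calls of Nr3c1, Fbxw11, Hif3a and Usp54 were made in all 8 of these fits and that of Tsc22d3 in 6.

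Summed levels of some cell type markers differed between DR and AL. The most abundant gene weighs most in a sum. This was Itpr1 for Purkinje cells (mean of 4140 CPM over all libraries) and Slc1a3 for Bergmann glia and astrocytes (1260 CPM). The summed level of the 5 Purkinje cell genes was 5490 to 6255 CPM on DR and 6401 to 6865 CPM on AL, with 1 of 5 called lower, and that of the 5 genes of Bergmann glia and astrocytes was 1561 to 1634 and 1741 to 1867 CPM, with 2 of 5 called lower. Of 5 oligodendrocyte genes 1 was lower, and no granule cell gene was called. Over all genes tested, 1.74% were called lower on DR. None of the lists had a gene at 0 in all libraries. On KD against AL no marker was called, and the Purkinje sum was 6288 to 6524 CPM. The red blood cell sums did not overlap, with 238.1 to 267.2 CPM on KD and 273.2 to 420.8 CPM on AL. Summed levels also differed between KD and DR. There the Purkinje sums did not overlap. Neither did those of Bergmann glia and astrocytes (1682 to 1770 CPM on KD) or of granule cells (3724 to 3867 on KD and 3953 to 4163 CPM on DR). In that comparison 1 Purkinje cell gene, 2 genes of Bergmann glia and astrocytes, 2 oligodendrocyte genes and 1 choroid plexus gene were called higher on KD, and 1 granule cell gene was called lower. Over all genes tested, 4.94% passed there. The part of cell makeup in the differences of the clock genes was not tested.

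Some clock genes share exonic bases with a gene on the other strand. The library kit does not keep strand, so strand cannot tell apart the reads of 2 genes in shared bases. The strand setting of the counting is not stated. Of the exonic bases of Dbp, 18.0% lie within exons of Sphk2, and of those of Nr1d1, 8.55% lie within exons of Thra, the thyroid hormone receptor alpha gene. Thra was at 324 ± 19.6 CPM on AL, 345 ± 21.5 on DR and 311 ± 16.2 on KD, and Sphk2 at 28.2 ± 1.72, 28.6 ± 0.732 and 28.0 ± 1.65 CPM. How reads in the shared bases were counted was not tested, so the values of Dbp and Nr1d1 are uncertain in this respect. Neither partner was called in any comparison, and for DR against AL their log2 fold changes were 0.07 and -0.01. For the other 8 core clock genes the share was 4.67% or less. Of the further genes named, Bhlhe41 shares 19.0% and Usp54 7% of its exonic bases with genes on the other strand.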

How the data were processed

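The authors trimmed paired reads with Trimmomatic 0.39, aligned them to GRCm38.p6 with STAR 2.7.0f and counted reads per gene with featureCounts of Subread 1.6.4, as the submitters' processing notes and the methods state, with GENCODE M20 as annotation and edgeR 3.32.1 for their own analysis. The deposited values are raw counts per gene of 12 libraries, with gene lengths and coordinates, and hold no columns of comparisons. The strand setting of the counting is not stated, and the library kit does not keep strand. RNA quality decided which AL and DR mice were sequenced. Depth was 31712084 to 40798644 reads per library.

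From these counts, CPM were computed with TMM-scaled library sizes, TPM with the deposited lengths, and log2 CPM after adding a prior count (2). The filterByExpr function removed genes of low counts (minima of 10 per library and 15 in all). Each pair of diets was fitted alone (8 libraries, no covariate) in R 4.3.3, where edgeR 4.0.16 ran its quasi-likelihood test. P-values were adjusted by Benjamini-Hochberg over all genes tested, at a threshold of 0.05, and intervals are 95% intervals. The test was checked on simulated data. Symbols were matched for 54723 of 54752 genes from GENCODE M21 names, 53861 of them by exact ID. Exon overlaps between genes come from the deposited exon coordinates, and the exons within the printed promoter stretches from GENCODE M21. Promoter windows come from RefSeq (GRCm38.p6). Correlations used SciPy 1.17.1. Their tests were added after the values had been seen.

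The 10 genes and the lists of other genes were chosen with earlier results of these data known. Named were all 10 genes, the other clock genes that passed in any comparison (at most 12, by smallest adjusted p), Npas2, Rora, Bhlhe41, Ciart, Tef and Hlf whatever their result, and for each clock gene the 3 genes most like it whose mean was 5 CPM or more. Alternatives were other scalings (RLE size factors, library size), other filters, DESeq2 1.42.0, 1 fit of all 12 libraries, Arntl as a covariate, a prior count of 0.5, correlations within pairs of diets and leaving out each mouse in turn. Proteins were not used here, and 1 listed gene is not reported here.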

Additional observations from a re-analysis of the deposited data

Results flagged for a closer look

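In 3 of the 69 sets of 4 mice examined (the named clock genes on each diet), 1 mouse stood far from the other mice of its diet by Dixon's criterion, which chance meets in about 1 in 20 sets. Cry1 was at 44.28 CPM in AL replicate 3 and at 51.4 to 52.3 CPM in the other AL mice. Nr1d2 was at 177.9 CPM in KD replicate 4 and at 208.8 to 214.5 CPM in the other KD mice. Hif3a was at 41.25 CPM in DR replicate 3 and at 35.23 to 36.21 CPM in the other DR mice.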

How the results depend on the processing

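No paired analysis was possible because the labels carry no numbers that pair mice across diets, and replicate numbers only name the libraries. Without a filter on low counts, DR against AL had 1258 genes called, 5 of them core clock genes, and 7 other clock genes, KD against AL had 118, 3 and 5, and 1503 genes and 2 core clock genes were called between KD and DR. This fit took 35236 to 35453 genes and gave genes of the same level nearly the same spread (median prior degrees of freedom of 531 or infinite, against 8.86 to 9.96), so its counts were not relied on. With genes over 10 CPM only, 0 core clock genes were called between DR and AL. DESeq2 called 1012 genes and 2 core clock genes (Per1 and Per2) and 5 other clock genes for DR against AL, and 10 genes for KD against AL. With Arntl as a covariate, 4 core clock genes and 5 other clock genes were called for DR against AL, 7 genes in all and 1 other clock gene (Fmo2) for KD against AL, and 1 core clock gene for KD against DR. The fit of all 12 libraries called 6 other clock genes between DR and AL, where the reported fit called 3. Without length, 0 of 10 genes kept their rank of level. Where not stated, the cause of these shifts was not tested.

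Leaving out 1 mouse at a time, DR against AL had 235 (without DR replicate 3) to 712 genes called (without AL replicate 3), 0 to 4 core clock genes (4 without DR replicate 2) and 1 to 4 other clock genes. KD against AL had 0 to 6 genes, 0 to 0 core clock genes and 0 to 0 other ones, and KD against DR 467 (without KD replicate 3) to 946 genes, 0 to 2 core clock genes (2 without DR replicate 2) and 4 to 7 other ones. Some log2 fold changes that did not pass the test changed sign. For DR against AL these were Arntl (-0.0501 to 0.0677) and Tsc22d3 (-0.152 to 0.067). For KD against AL they were Arntl (-0.0459 to 0.0485), Cry1 (-0.0118 to 0.0763), Npas2 (-0.171 to 0.105) and Per2 (-0.141 to 0.000163). For KD against DR they were Arntl (-0.0745 to 0.0453), Ciart (-0.144 to 0.362), Clock (-0.00187 to 0.0514), Cry2 (-0.0276 to 0.0524), Fmo2 (-0.0992 to 0.218), Nr1d2 (-0.0277 to 0.146) and Per3 (-0.105 to 0.0751). Between KD and DR, Ciart also changed sign with RLE size factors (0.00175) and with Arntl as a covariate (0.0179), and Cry2 with library size only (-0.000736). Over the 10 core clock genes and the 3 comparisons, 191 of the values under the other settings and 208 of those without 1 mouse kept both their direction and their side of the threshold. Under the other settings, 1 further value changed direction, 14 newly passed and 1 no longer passed. Without 1 mouse, 20 changed direction, 6 newly passed and 6 no longer passed. A value that never passed also counts as kept. With 4 mice per diet, intervals such as that of Dbp on KD against AL (-0.67 to -0.03) are wide. Counting error at 525 to 9561 reads per gene was not set against the spread between mice for each clock gene.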
